A study of Tupaia belangeri chinensis with 36 samples.

Results

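The marginal zone (MZ) was set against the outer part of the cortical plate (CPo) in the fetal cortex of the Chinese tree shrew, Tupaia belangeri chinensis, at embryonic day 42 (E42). Members were taken by label: the 4 libraries of E42 MZ and E42 CPo, 2 of each, out of 36 libraries in the series, with all 76871 annotated features of their count files. Both groups are untreated fetal cortex, and the labels give them no genotype, strain or agent. The other libraries cover further layers at E28, E37 and E42. The MZ was also cut at E37, where it is compared with CPo, and at E28, where it is compared with an undivided cortical plate (CP). Layers were cut by laser from Nissl-stained frozen sections of the fetal cortex, so a layer is a strip of tissue with every cell type in it, and libraries were made from poly-A RNA. The labels number the replicates without saying whether a number marks an embryo, a litter or a pool, so p-values measure only the spread between these samples, which may be technical. The count file labelled E42 VZ replicate 2 holds the same counts as that of E28 VZ replicate 2, and it was left out, so the ventricular zone (VZ) at E42 is 1 library and 35 libraries entered the fit.

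The MZ is the outermost layer of the fetal cortex, under the pia. It is known for Cajal-Retzius cells, early-born neurons that secrete Reelin and carry transcription factors such as LHX5 and TP73, and it also holds tangentially migrating inhibitory neurons, glia and the outer ends of radial glial fibres. The cortical plate lies beneath it and fills from the inside outwards, so that its outer part takes in the last-arriving neurons, those of the future upper layers, which are known for CUX2 and the POU3F factors.

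The features are of several kinds. Coding genes carry TSDBGID identifiers, of which 0 matched the reference gene table, so they are described by number and not by name, and the marker genes of each layer could not be read directly. Features named LINC-SYMBOL-n and SYMBOL-AS-n are read here as long intergenic and antisense noncoding transcripts that bear the symbol of a gene, and 86.5% of the 6348 symbols in the names of tested features are RefSeq symbols. Such a feature is not the gene itself. The strand setting of the counting is not given in the sources used here, so reads of an antisense feature cannot be told from those of its partner gene. In bulk tissue, fewer cells of a type and less RNA per cell cannot be told apart.

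The MZ libraries held 102042743 and 21545784 counts on features and the CPo libraries 60294673 and 41628512, so the deepest was 4.74 times the shallowest. Replicates correlated at 0.977 (MZ) and 0.984 (CPo) on the log CPM scale, where CPM is the count scaled to a common library total, with TMM normalization. TSDBGID features took 97.75% to 98.4% of the counts. Antisense features took 1.35% and 1.44% of counts in the MZ and 1.03% and 0.907% in CPo. That gap came from a single feature, MT-ND1-AS-1, named after a subunit of the mitochondrial respiratory chain: without it the shares were 1.03% and 0.918% against 0.984% and 0.882%. Reads that did not align were 13.56% and 15.91% in the MZ and 8.28% and 10.05% in CPo, and reads outside any feature 13.53% and 11.97% against 11.1% and 10.08%. With 2 libraries against 2, an exact two-sided permutation test of such a share cannot go below p = 0.333. The part of these differences in the results below was not tested.

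Of 26858 features with enough counts to test, 2077 (7.73%) were higher in the MZ and 1469 (5.47%) were higher in CPo, at an adjusted p under 0.05. Here and below the adjusted p is from edgeR's quasi-likelihood test with Benjamini-Hochberg adjustment over all features tested. Among the 10836 LINC and AS features tested, 146 (1.35%) were higher in the MZ and 46 (0.425%) in CPo. The remaining calls were 3353 TSDBGID features, 1931 higher in the MZ and 1422 in CPo, and 1 feature with no symbol. With MZ replicate 2 left out, 1166 features were higher in the MZ and 707 in CPo. The counts were 1170 and 601 without CPo replicate 1, 1132 and 841 without CPo replicate 2, and 1503 and 1139 without MZ replicate 1. For LINC and AS features these fits gave 62 and 15, 45 and 18, 39 and 18, and 86 and 53, in the same order.

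The calls on the 2 sides differed in size and in level. Called LINC and AS features on the MZ side had a median log2 fold change of 3.32 and a median level of 2.44 CPM in their higher group. Those on the CPo side had a median of -1.68 and a level of 16.8 CPM. TSDBGID features showed the same order, with medians of 1.97 and -0.85. Of the 146 LINC and AS features called higher in the MZ, 22 had no count in either CPo library, whereas 2 of the 46 on the other side had none in the MZ. A feature at a low level needs a larger difference to pass the test, so size and level of the calls are tied by the selection. The deepest library is on the MZ side, and its part in these medians and counts was not tested. The median log2 fold change over all LINC and AS features tested was 0.23, against 0.09 over all features. It was 0.04 when MZ replicate 1 was thinned to the depth of MZ replicate 2, and -0.40 without MZ replicate 1. Without MZ replicate 2, CPo replicate 1 or CPo replicate 2 it was 0.32, 0.51 and 0.22. Among these fits the sign turned only without MZ replicate 1, and the part of that library's depth was not tested.

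**Figure D1:**
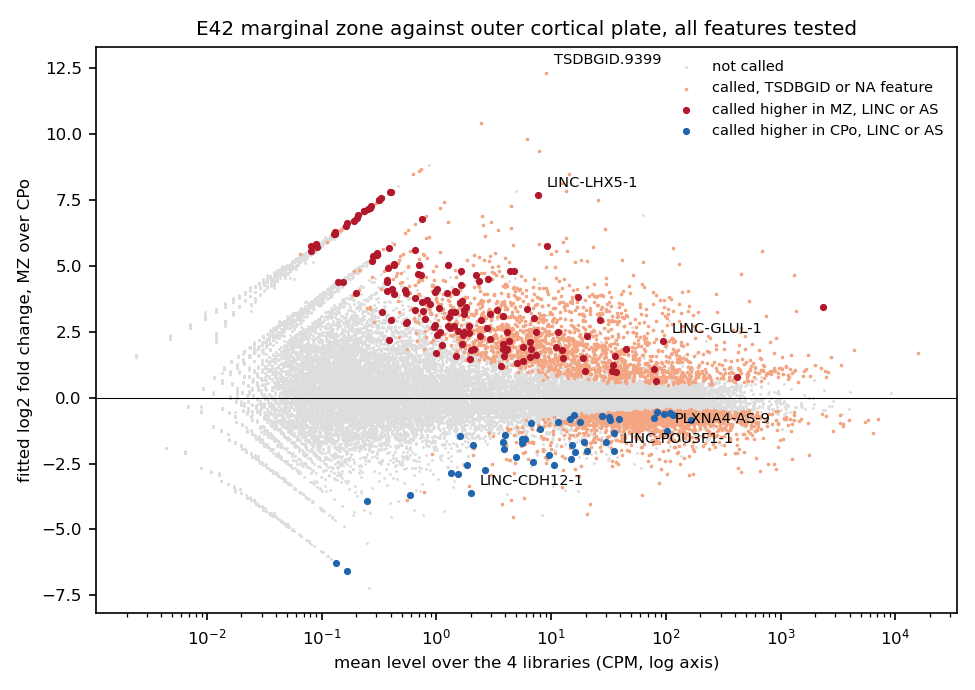
Mean level over the 4 E42 libraries (x, CPM, log axis) against the fitted log2 fold change of MZ over CPo (y) for each feature tested with a count in these libraries. Called LINC and AS features (large points) reach high folds at low levels on the MZ side, and lie at lower folds and higher levels on the CPo side, where 24 of 46 have a mean of at least 10 CPM, compared with 19 of 146 on the MZ side.

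A feature bearing the symbol LHX5 separated the layers widely. LINC-LHX5-1 stood at 11.9 and 18.9 CPM in the MZ libraries and at 0.106 and 0.0257 CPM in the CPo libraries, a 233-fold difference in means (log2 fold change 7.67, SE 0.79, adjusted p = 5.3e-07). LHX5 is a LIM-homeodomain factor of Cajal-Retzius cells. In the layers below CPo its highest mean at E42 was 0.0193 CPM, in the outer subventricular zone (OSVZ), and it was at 0 in the single VZ library and in both intermediate zone (IZ) libraries. Both MZ libraries of E42 were below the earlier MZ libraries, which held 123 and 77.1 CPM at E28 and 30.5 and 67.5 CPM at E37, a difference between stages that was not tested. Its layer difference passed the test at those stages too, with log2 fold changes of 8.05 at E37 (SE 0.79, adjusted p = 5.1e-07) and 6.08 at E28 (SE 0.67, adjusted p = 5.2e-06).

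Several weaker features had the same shape. LINC-NDST4-1 was at 0.631 and 0.579 CPM in the MZ, with 1 count over both CPo libraries, a ratio of 59.3 with a 95% counting interval of 10.3 to 2370. LINC-NDST4-3 was at 0.756 and 0.869 CPM against 0.071 and 0.0257 CPM (16.8-fold, adjusted p = 0.041). NDST4 encodes an enzyme that modifies heparan sulfate chains. Of the 3 tested features bearing its symbol 2 were called, both toward the MZ, where 1.35% of all LINC and AS features were. NDST4 was among the symbols named for having the most calls, so this count is high by selection. LINC-RALGAPA1-1 was at 0.593 and 0.483 CPM with no count in CPo, which puts it at least 17.1-fold higher in the MZ against a floor of 3 counts over the CPo group (0.0315 CPM). LINC-DGKG-2, named after a diacylglycerol kinase, was at 1.18 and 1.83 CPM with 1 count in CPo, a ratio of 122 with an interval of 21.7 to 4860. The intervals cover counting error only.

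All 4 of these calls are thin. LINC-NDST4-1 and LINC-NDST4-3 lost their call whichever library was left out, with adjusted p from 0.059 to 0.18 and from 0.092 to 0.27. LINC-RALGAPA1-1 lost it without CPo replicate 1 (0.096) and CPo replicate 2 (0.065), and LINC-DGKG-2 without those (0.096 and 0.14) and without MZ replicate 2 (0.054). LINC-LHX5-1 stayed called without any 1 of the 4 libraries. In all, 9 of the 146 LINC and AS features called higher in the MZ, and 103 of the 2077 of every kind, had an MZ mean at least 3 times that of each other E42 layer. On the CPo side these counts were 0 of 46 and 3 of 1469. The factor of 3 was chosen after the values were seen.

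Coding genes gave the widest separations, although they cannot be named. TSDBGID.9399 was at 15.1 and 21.1 CPM in the MZ with no count in CPo, at least 575-fold higher. TSDBGID.7408 was at 10.1 and 14.5 CPM with 1 count in CPo, a ratio of 1030 with an interval of 185 to 40800. Both were nearly confined to the MZ at E42, at under 1 CPM in the mean of each other layer, and both were higher in the MZ at E37 (log2 fold changes 7.54 and 7.73) and at E28 (6.66 and 8.79). On the CPo side, TSDBGID.21781 was at 40.8 and 37.9 CPM against 1.63 and 2.08 CPM in the MZ (21.2-fold, adjusted p = 0.00068), and TSDBGID.6685 at 26 and 56.7 CPM against 2.76 and 2.27 CPM (16.5-fold, adjusted p = 0.015). Those 2 were higher still in the inner cortical plate (CPi), at mean levels of 84.8 and 59.5 CPM. The call of TSDBGID.6685 was lost without MZ replicate 1 (adjusted p = 0.092), MZ replicate 2 (0.12) or CPo replicate 2 (0.09).

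**Figure D2:**
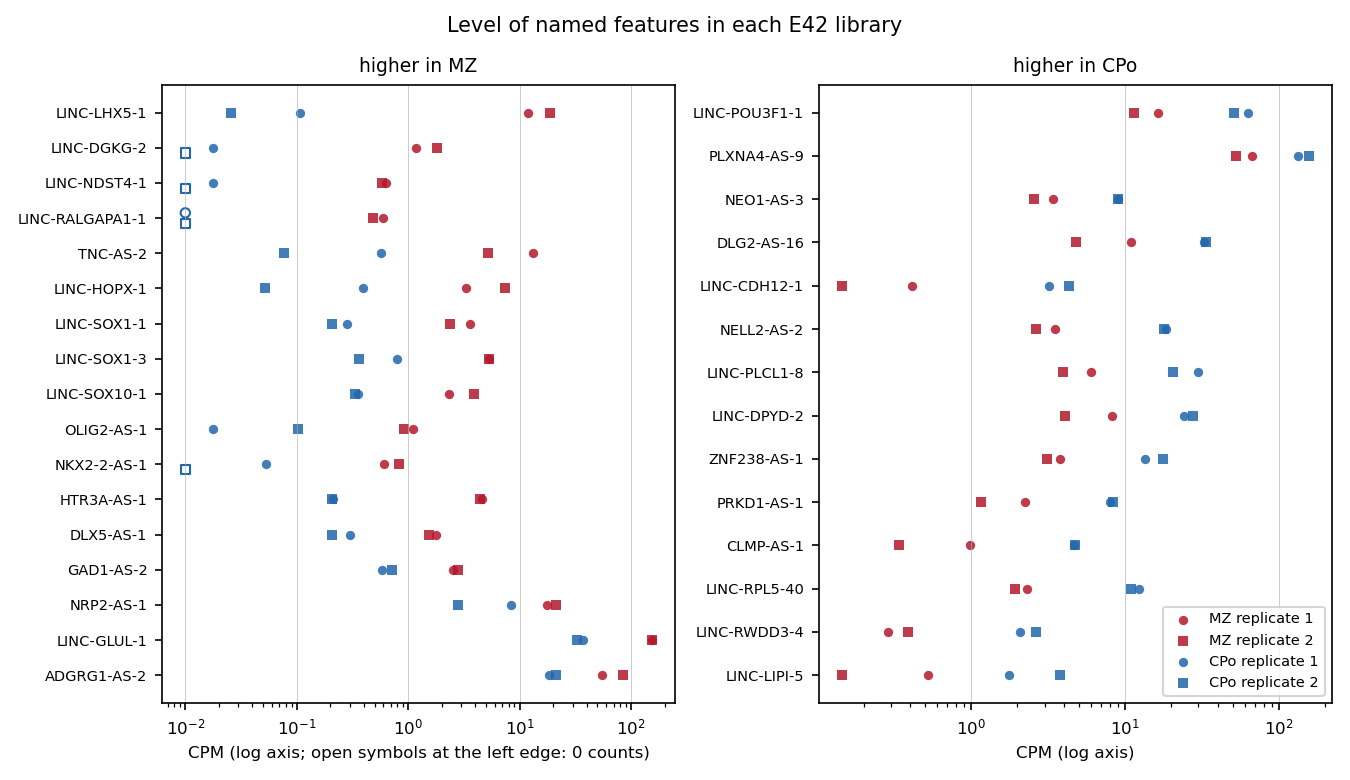
CPM of named LINC and AS features in each of the 4 E42 libraries (log axes), MZ in red and CPo in blue, circles for replicate 1 and squares for replicate 2, with open symbols at the left edge for 0 counts. The MZ and CPo points of every feature shown are apart: LINC-LHX5-1 lies at 11.9 and 18.9 CPM against 0.106 and 0.0257 CPM, and LINC-POU3F1-1 at 16.4 and 11.5 CPM against 63.3 and 50.9 CPM.

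Most features that were higher in the MZ than in CPo were not highest in the MZ. Of the 2077, 943 (45.4%) had their highest E42 mean in the VZ, 673 (32.4%) in the MZ, 187 in OSVZ, 179 in the inner subventricular zone (ISVZ), 80 in the IZ and 15 in CPi. For the 146 LINC and AS features the VZ came first with 69, followed by the MZ with 38 and ISVZ with 21. The 1469 features higher in CPo stayed largely within the plate: 775 (52.8%) were highest in CPo itself and 441 (30%) in CPi, and 30 of the 46 LINC and AS features were highest in CPo. These are orders of means, with a VZ of 1 library. The highest layer was not counted over all features tested, so these shares have no background beside them. By selection, CPo cannot be highest for features called higher in the MZ, nor the MZ for those called higher in CPo.

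**Figure D3:**
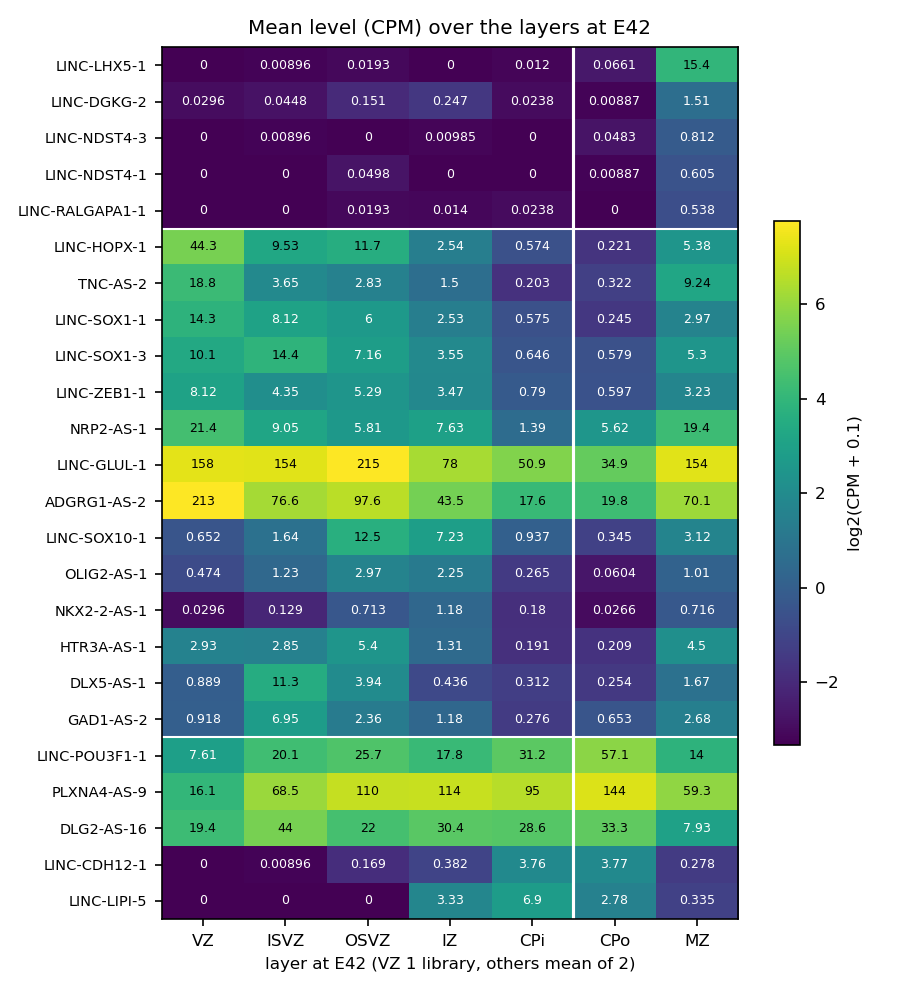
Mean CPM (printed in each cell, colour on the scale log2 of CPM + 0.1) of named features over the 7 layers at E42, with the VZ as 1 library and the others as means of 2. The top block is high in the MZ column and low in each other column. The middle block has higher means in the MZ than in CPo and CPi and is also present in layers below the plate. LINC-SOX10-1, OLIG2-AS-1 and NKX2-2-AS-1 did not pass the edgeR test of MZ against CPi (adjusted p = 0.11, 0.33 and 0.34). The other features of the middle block passed it. The bottom block is lower in the MZ than in CPo.

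Noncoding features bearing symbols of radial glia and astrocyte markers were called toward the MZ only. Of 55 tested, 11 were called higher in the MZ and 0 in CPo, against a background of 1.35% and 0.425% over all LINC and AS features, and their median log2 fold change was 1.79 against 0.23. With features at 0 in a group set at their bound, the medians were 0.80 and 0.10. Their summed level was 48.2 and 41.6 CPM in the MZ and 11.3 and 6.92 CPM in CPo. Without MZ replicate 1 the medians were 0.63 for the list and -0.40 for all LINC and AS features, and with that library thinned 1.21 and 0.04. The 11 became 5 without MZ replicate 1, 7 without MZ replicate 2, 6 without CPo replicate 1 and 1 without CPo replicate 2.

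TNC-AS-2 was the most abundant of the list, at 13.3 and 5.21 CPM in the MZ and 0.568 and 0.0772 CPM in CPo (28.7-fold, log2 fold change 4.78, SE 1.15, adjusted p = 0.0064). TNC encodes tenascin-C, a matrix glycoprotein of radial glia. LINC-HOPX-1, named after a homeodomain protein of outer radial glia and astrocytes, was at 3.28 and 7.48 CPM against 0.39 and 0.0515 CPM (24.4-fold, adjusted p = 0.0039). Both were more abundant in the VZ library, at 18.8 and 44.3 CPM, so the MZ means lay between those of CPo and the VZ. LINC-NFIB-3 was at 0.507 and 0.917 CPM, with 3 counts in CPo, a ratio of 18.2 with an interval of 6 to 90.6. Both tested features of NFIB, a factor of gliogenesis, were called toward the MZ. NFIB was also among the symbols named for having the most calls. Without CPo replicate 2 the calls of TNC-AS-2 (adjusted p = 0.096), LINC-HOPX-1 (0.067) and LINC-NFIB-3 (0.14) were lost, the last also without MZ replicate 2 (0.067).

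SOX1, a SOXB1 factor of neural progenitors, was the symbol with the most called features, 3 of 7 tested, all toward the MZ. Of all LINC and AS features 1.35% were called toward the MZ. Symbols were picked for having the most calls, so such counts are high by selection. LINC-SOX1-1 was at 3.57 and 2.36 CPM in the MZ and 0.284 and 0.206 CPM in CPo (12.1-fold, log2 fold change 3.58, SE 0.57, adjusted p = 5.6e-05). LINC-SOX1-3 was at 5.29 and 5.31 CPM against 0.798 and 0.36 CPM (9.15-fold, adjusted p = 0.0044), and LINC-SOX1-7 at 2.3 and 1.59 CPM against 0.302 and 0.0515 CPM (11-fold, adjusted p = 0.00086). The 3 were 9.15-fold to 12.1-fold higher, with groups that did not overlap. All 3 were more abundant below the plate. LINC-SOX1-1 was at 14.3 CPM in the VZ library, and LINC-SOX1-3 and LINC-SOX1-7 were at means of 14.4 and 8.52 CPM in ISVZ. Each passed the test at E37 as well, with log2 fold changes of 3.42, 5.29 and 3.28. LINC-SOX1-3 lost its E42 call without CPo replicate 2 (adjusted p = 0.093). ZEB1, a zinc-finger repressor of progenitor cells, had 2 of 3 tested features called: LINC-ZEB1-1 stood at 3.56 and 2.9 CPM against 0.55 and 0.644 CPM, and LINC-ZEB1-2 at 2.23 and 3.28 CPM against 0.213 and 0.103 CPM. In the VZ library LINC-ZEB1-1 and LINC-ZEB1-2 were higher still, at 8.12 and 5.04 CPM. The first lost its call without CPo replicate 1 (0.066) and the second without CPo replicate 2 (0.056).

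The oligodendrocyte lineage list had 4 of 11 tested features called higher in the MZ and 0 in CPo, with a median log2 fold change of 3.47, against 1.35%, 0.425% and 0.23 over all LINC and AS features. Its summed level was 7.25 and 8.2 CPM in the MZ and 0.71 and 0.644 CPM in CPo. LINC-SOX10-1, named after a factor required in oligodendrocytes, was at 2.33 and 3.91 CPM against 0.355 and 0.335 CPM (9.06-fold, log2 fold change 3.15, SE 0.74, adjusted p = 0.0039). OLIG2-AS-1, named after the lineage-specifying factor OLIG2, was at 1.1 and 0.917 CPM against 0.0177 and 0.103 CPM (16.7-fold, adjusted p = 0.032). NKX2-2-AS-1 was at 0.612 and 0.82 CPM with 3 counts in CPo, a ratio of 20.5 with an interval of 6.78 to 102 (adjusted p = 0.025).

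These features were not highest in the MZ. LINC-SOX10-1 was at a mean of 12.5 CPM in OSVZ and 7.23 CPM in the IZ, OLIG2-AS-1 at 2.97 and 2.25 CPM, and NKX2-2-AS-1 at 0.713 and 1.18 CPM. At E28 all 3 had no count in either the MZ or CP libraries. At E37 they were higher in the MZ, with adjusted p = 0.0037, 0.018 and 0.025, though OLIG2-AS-1 had counts in only 1 of the 2 MZ libraries. The list held 1 call without MZ replicate 1, 2 without MZ replicate 2, and 0 without either CPo library: LINC-SOX10-1 came to adjusted p = 0.059 and 0.057, OLIG2-AS-1 to 0.30 and 0.082, and NKX2-2-AS-1 to 0.055 and 0.22. The last 2 were also lost without MZ replicate 1 (0.099 and 0.054) or MZ replicate 2 (0.08 and 0.095).

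Inhibitory neuron markers followed, with 4 of 37 called higher in the MZ, 0 in CPo and a median log2 fold change of 2.03, against 1.35%, 0.425% and 0.23 over all LINC and AS features. Their summed level was 46.7 and 33.4 CPM in the MZ and 10.2 and 8.08 CPM in CPo. HTR3A-AS-1, named after a serotonin receptor of late-born interneurons, was at 4.56 and 4.44 CPM against 0.213 and 0.206 CPM (21.5-fold, log2 fold change 4.40, SE 1.07, adjusted p = 0.0052). DLX5-AS-1, named after a homeobox factor of ventral forebrain origin, was at 1.79 and 1.54 CPM against 0.302 and 0.206 CPM (6.57-fold, adjusted p = 0.0082). GAD1-AS-2, named after the enzyme that makes GABA, was at 2.55 and 2.8 CPM against 0.585 and 0.721 CPM (4.1-fold, adjusted p = 0.046).

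Among the layers, DLX5-AS-1 and GAD1-AS-2 peaked in ISVZ at 11.3 and 6.95 CPM. HTR3A-AS-1 had its highest mean in OSVZ, 5.4 CPM, from libraries at 8.08 and 2.71 CPM. Those lie on either side of the MZ libraries, at 4.56 and 4.44 CPM. HTR3A-AS-1 was higher in the MZ at all 3 stages, by 3.81 at E37 (adjusted p = 0.02) and 3.43 at E28 (0.04). DLX5-AS-1 and GAD1-AS-2 passed the test at E28 (adjusted p = 0.0085 and 0.0039) and had log2 fold changes of 1.40 and 1.5 at E37 (0.24 and 0.20). The list held 2 calls without MZ replicate 1, 3 without MZ replicate 2, and 0 without either CPo library, where HTR3A-AS-1 came to adjusted p = 0.082 and 0.074, DLX5-AS-1 to 0.064 and 0.11, and GAD1-AS-2 to 0.28 and 0.17. GAD1-AS-2 was also lost without MZ replicate 1 (0.12) or MZ replicate 2 (0.18).

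**Figure D4:**
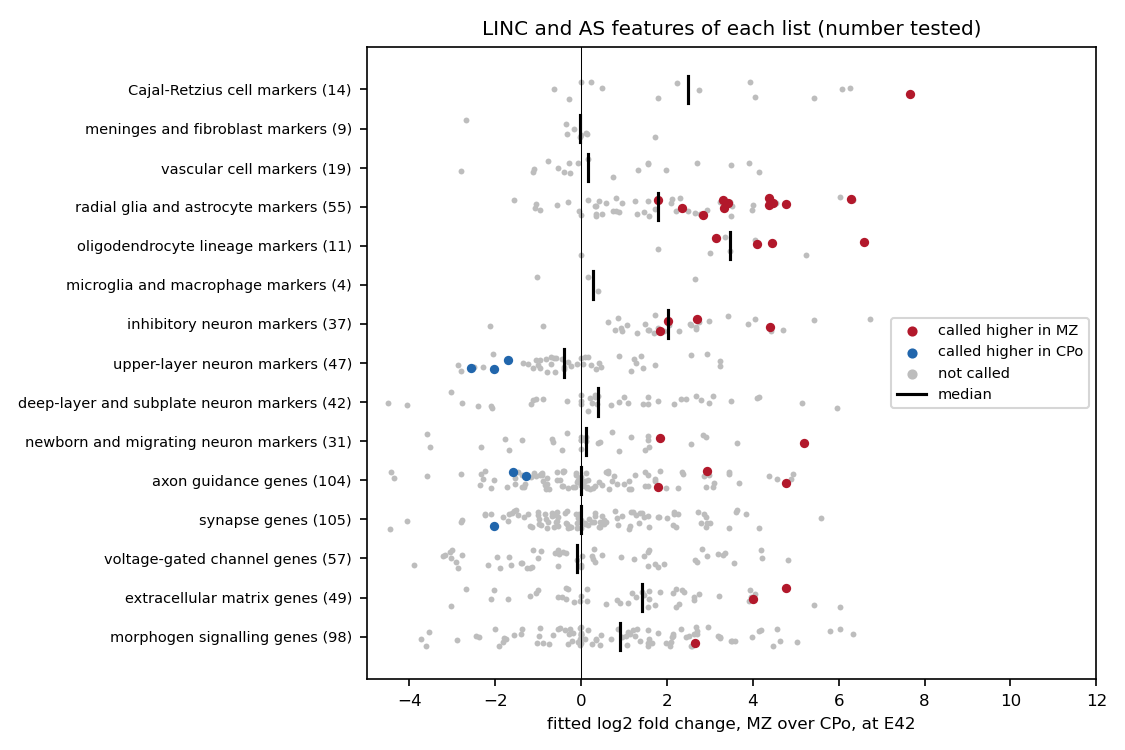
Fitted log2 fold change of MZ over CPo at E42 for each tested LINC and AS feature whose symbol is on a list (number tested in brackets), with called features in colour and a black bar at the median. The oligodendrocyte, Cajal-Retzius, inhibitory neuron and radial glia lists have the largest medians, 3.47, 2.48, 2.03 and 1.79. They hold 4, 1, 4 and 11 calls toward the MZ, and upper-layer neuron markers hold 3 calls toward CPo. Without the filter on low counts the medians of these lists were 3.04, 0.44, 0.96 and 0.48, beside 0 for all LINC and AS features. With features at 0 in a group set at their bound, the Cajal-Retzius median was 0.47, below the 0.57 of the extracellular matrix list.

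The Cajal-Retzius list had 1 of 14 tested features called toward the MZ, LINC-LHX5-1, and 0 toward CPo. Over all LINC and AS features the shares were 1.35% and 0.425%. The list's median log2 fold change was 2.48 against 0.23. With features at 0 in a group set at their bound, the medians were 0.47 and 0.10. Without MZ replicate 1, and with no such bound, they were 0.64 and -0.40. The list summed to 17.8 and 24.8 CPM in the MZ, mostly from that feature, and to 6.39 and 5.35 CPM in CPo, mostly from LINC-TP73-1. RELN-AS-5, named after Reelin, was at 0.268 and 0.917 CPM against 0.0177 and 0 CPM (adjusted p = 0.053). LINC-LHX1-4 was at 0.21 and 0.338 CPM with no count in CPo (adjusted p = 0.082). LINC-TP73-1 had 3.78 and 2.7 CPM in the MZ and 5.66 and 4.5 CPM in CPo (log2 fold change -0.64, SE 0.37, adjusted p = 0.32). The list's call rests on 1 feature, and 49 of its 80 annotated features had no count in these 4 libraries.

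Lists of meningeal, vascular and immune cells held no call in the fit of 35 libraries. Of all LINC and AS features, 1.35% were called toward the MZ and 0.425% toward CPo. Tested features covered 4 of 24 meningeal, 13 of 26 vascular and 1 of 17 microglial symbols. At such shares lists this small can hold no call whatever the layers contain, so the 0 counts do not show that these cells are absent. Meninges and fibroblast markers had 0 of 9 features called in either direction, with summed levels of 2.03 and 0.965 CPM in the MZ and 2.68 and 1.49 CPM in CPo, and 59 of their 83 annotated features had no count. Vascular markers had 0 of 19 called, at 7.3 and 6.95 CPM against 7.1 and 7.23 CPM, sums that overlap between the groups. Microglia and macrophage markers had 0 of 4 called, all bearing the symbol PTPRC. The list's level was set by LINC-PTPRC-4, at 10.3 and 5.26 CPM against 19.1 and 13.1 CPM (adjusted p = 0.26). At an unadjusted p under 0.05 the counts for these 3 lists were 1, 1 and 0, and DESeq2 called 0, 1 and 0. The fit of the 4 libraries alone called 1 meningeal feature toward CPo, 2 vascular features toward the MZ and 1 microglial feature toward CPo.

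On the other side, upper-layer neuron markers held calls toward CPo. Of 47 tested features 3 were called higher in CPo and 0 in the MZ, against backgrounds of 0.425% and 1.35%, with a median log2 fold change of -0.40. Their summed level was 184 and 181 CPM in CPo and 92 and 67.9 CPM in the MZ. LINC-POU3F1-1, named after a POU factor of upper-layer neurons, was at 63.3 and 50.9 CPM in CPo and 16.4 and 11.5 CPM in the MZ (4.1-fold, log2 fold change -2.03, SE 0.51, adjusted p = 0.0093).

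Its mean in CPi was 31.2 CPM, below that of 57.1 CPM in CPo. The list's median was -1.39 without MZ replicate 1, -0.23 without MZ replicate 2, -0.09 without CPo replicate 1 and -0.50 without CPo replicate 2, beside -0.40, 0.32, 0.51 and 0.22 for all LINC and AS features in the same fits. The 3 calls of the list became 2 without MZ replicate 1, 1 without MZ replicate 2, 1 without CPo replicate 1 and 2 without CPo replicate 2. LINC-POU3F1-1 had a log2 fold change of -1.16 at E37 (adjusted p = 0.15) and 0.19 against CP at E28 (0.90). It lost its E42 call without CPo replicate 1 (adjusted p = 0.067) or MZ replicate 2 (0.10). Deep-layer and subplate markers had 0 of 42 features called, 4 at an unadjusted p under 0.05, and DESeq2 called 0.

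The 12 LINC and AS features with the largest differences toward CPo were 4.2-fold to 13.6-fold higher there, among those of at least 0.5 CPM in the higher group. LINC-CDH12-1, named after a neuronal cadherin, was at 3.19 and 4.35 CPM against 0.411 and 0.145 CPM in the MZ (13.6-fold, log2 fold change -3.62, SE 0.83, adjusted p = 0.0033). LINC-PLCL1-8, named after a phospholipase C-like protein, was at 29.7 and 20.4 CPM against 5.99 and 3.96 CPM (5.04-fold, adjusted p = 0.0017). LINC-DPYD-2, named after a pyrimidine-degrading enzyme, was at 24.3 and 27.5 CPM against 8.27 and 4.05 CPM (4.2-fold, adjusted p = 0.001). The last 2 rest on 2468 and 2438 counts in CPo, against 1631 counts in the MZ for LINC-LHX5-1.

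ZNF238-AS-1, named after a repressor needed for neuronal differentiation, was at 13.5 and 17.6 CPM in CPo and 3.79 and 3.09 CPM in the MZ (4.53-fold, log2 fold change -2.17, SE 0.41, adjusted p = 0.00047). It was also lower in the MZ at E37 (-2.03, SE 0.42, adjusted p = 0.0016) and at E28 (-1.91, SE 0.42, adjusted p = 0.0034), so it passed the test at all 3 stages. NELL2-AS-2, named after a secreted neuronal glycoprotein, was at 18.4 and 17.8 CPM against 3.49 and 2.65 CPM (5.89-fold, adjusted p = 0.023). LINC-PLCL1-8, LINC-DPYD-2 and ZNF238-AS-1 stayed called without any 1 library. With all 36 libraries in the fit LINC-DPYD-2 came to adjusted p = 0.055. LINC-CDH12-1 was lost without MZ replicate 2 (adjusted p = 0.061), and NELL2-AS-2 without each library in turn (0.073 to 0.16).

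Axon guidance genes were called on both sides, 3 toward the MZ and 2 toward CPo of 104 tested, where 1.35% and 0.425% of all LINC and AS features were called. Their median log2 fold change was 0, so the calls are described feature by feature. NRP2-AS-1, named after a semaphorin and VEGF co-receptor, was at 17.6 and 21.3 CPM in the MZ and 8.44 and 2.81 CPM in CPo (3.45-fold, adjusted p = 0.016). SEMA6A-AS-2, named after a transmembrane semaphorin, was at 6.01 and 2.65 CPM against 0.514 and 0.618 CPM (7.65-fold, adjusted p = 0.0019), and LINC-FLRT2-11, named after an adhesion protein that binds UNC5 receptors, at 1.62 and 4.78 CPM against 0.213 and 0 CPM (30-fold, adjusted p = 0.026). The other calls lay on the CPo side. PLXNA4-AS-9, named after a plexin, was at 132 and 156 CPM in CPo and 66.4 and 52.3 CPM in the MZ (2.42-fold, log2 fold change -1.28, SE 0.28, adjusted p = 0.0024), and NEO1-AS-3, named after the netrin and RGM receptor neogenin, at 8.99 and 8.96 CPM against 3.39 and 2.56 CPM (3.02-fold, adjusted p = 0.014).

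Of these 5, PLXNA4-AS-9, at adjusted p = 0.13 with all 36 libraries in the fit, kept its call without any 1 library. NRP2-AS-1 lost it without CPo replicate 2 (adjusted p = 0.28) or MZ replicate 2 (0.13), LINC-FLRT2-11 without the same libraries (0.23 and 0.19), SEMA6A-AS-2 without CPo replicate 1 (0.050) or MZ replicate 1 (0.057), and NEO1-AS-3 without CPo replicate 1 (0.069), CPo replicate 2 (0.062) or MZ replicate 2 (0.12). Newborn and migrating neuron markers had 2 of 31 called, both toward the MZ, where 1.35% of all LINC and AS features were: LINC-SOX4-6 stood at 2.12 and 4.49 CPM against 1.08 and 0.746 CPM (3.62-fold, adjusted p = 0.045), and CHD7-AS-1 at 0.402 and 0.676 CPM with 1 count in CPo, a ratio of 42.6 with an interval of 7.34 to 1710. Both lost their call without CPo replicate 1 (0.14 and 0.19) or MZ replicate 2 (0.45 and 0.061), and LINC-SOX4-6 also without CPo replicate 2 (0.29).

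Synapse, channel, matrix and morphogen lists are read against the same 1.35% toward the MZ and 0.425% toward CPo. Synapse genes had 1 of 105 called, DLG2-AS-16, named after a postsynaptic scaffold protein, at 32.8 and 33.8 CPM in CPo and 11 and 4.83 CPM in the MZ (4.2-fold, log2 fold change -2.04, SE 0.52, adjusted p = 0.011). It was lower in the MZ at E37 (-2.23, adjusted p = 0.0082) and at E28 (-2.03, adjusted p = 0.017), and lost its E42 call without MZ replicate 2 (0.12) or CPo replicate 2 (0.050). Voltage-gated channel genes had 0 of 57 called, 9 at an unadjusted p under 0.05, and DESeq2 called 3. The extracellular matrix list had 2 of 49 called toward the MZ, TNC-AS-2 and ADAMTS9-AS-1, the latter named after a secreted protease and at 1.49 and 2.17 CPM against 0.071 and 0.154 CPM (16.3-fold, adjusted p = 0.026). Of 98 features on the morphogen signalling list 1 was called toward the MZ, a share no higher than that over all LINC and AS features. It was FGF12-AS-1, at 3.28 and 6.18 CPM against 0.674 and 0.824 CPM (6.32-fold, adjusted p = 0.028). ADAMTS9-AS-1 lost its call without each library in turn (0.053 to 0.25), and FGF12-AS-1 without either CPo library (0.22 and 0.14) or MZ replicate 2 (0.22).

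Of all LINC and AS features tested, 146 (1.35%) were higher in the MZ and 46 (0.425%) in CPo, and of all features 7.73% and 5.47%. Among the 210 LINC and AS features with a mean of at least 10 CPM over the 4 libraries, 19 were higher in the MZ and 24 in CPo. This group and the features named from it here were chosen after their values were seen. MT-ND1-AS-1 was the most abundant, at 3180 and 5440 CPM in the MZ and 538 and 267 CPM in CPo (log2 fold change 3.42, SE 0.90, adjusted p = 0.016). Below the plate its layer means ran from 89.6 CPM in the VZ library to 2190 CPM in OSVZ, and it lost its call without MZ replicate 2 (0.097), CPo replicate 1 (0.072) or CPo replicate 2 (0.17). LINC-TMEM132B-23 was at 28.6 and 35.5 CPM against 2.82 and 1.75 CPM (log2 fold change 3.80, SE 0.48, adjusted p = 2.2e-06), and was higher in the MZ at E37 (4.27, adjusted p = 1.6e-05) and at E28 (3.48, adjusted p = 0.00013). Another feature of the same symbol, LINC-TMEM132B-3, went the other way, at 0.0478 and 0.145 CPM in the MZ and 1.4 and 0.772 CPM in CPo (adjusted p = 0.039), a call lost without each library in turn (0.067 to 0.28). VLDLR-AS-2, named after a Reelin receptor, was at 55.1 and 45.8 CPM in CPo and 20 and 19.8 CPM in the MZ (log2 fold change -1.34, SE 0.23, adjusted p = 0.00018), and it passed the test in the same direction at E37 (-0.92, adjusted p = 0.0084) and E28 (-1.48, adjusted p = 0.00015). VLDLR-AS-2 and LINC-TMEM132B-23 stayed called at E42 without any 1 library.

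The layer difference was then set against that of the earlier stages, whose libraries are separate. At E37, 1656 features (6.17%) were higher in the MZ and 1563 (5.82%) in CPo, and at E28 1195 (4.45%) were higher in the MZ and 1281 (4.77%) in CP. Of the 2077 features higher in the MZ at E42, 1264 were also called at E37, which is 60.9% of the E42 list and 76.3% of the E37 list, and 2 were called the other way. Of the 1469 higher in CPo, 954 were also called at E37 (64.9% and 61%), and 1 the other way. With E28 the shared counts were 712 (34.3% and 59.6%) and 590 (40.2% and 46.1%), with 56 and 18 called in the opposite direction. Of the 10836 LINC and AS features tested, 95 were higher in the MZ at E37 and 105 in CPo. Shared with E37 were 57 of the 146 on the MZ side (39% of the E42 list and 60% of the E37 list). On the CPo side 19 of 46 were shared (41.3% and 18.1%).

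A call at 1 stage and not at another does not show that the stages differ, so the change itself was tested. From E37 to E42, the MZ against CPo difference moved toward the MZ for 29 features (0.108%) and toward CPo for 2 (0.00745%), and 1357 had an unadjusted p under 0.05. The 29 became 3 with all 36 libraries in the fit and 5 without E42 MZ replicate 2 or without E42 CPo replicate 2. It was 14 without E42 MZ replicate 1, 11 without E42 CPo replicate 1 or E37 MZ replicate 2, and 12 without E37 MZ replicate 3 or E37 CPo replicate 3. The 2 became 0 with all 36 libraries, 4 without either E37 MZ library, and 1 without any of the other 6 libraries of the contrast. With the 8 libraries of the contrast alone, no feature passed in either direction and 1022 had an unadjusted p under 0.05, while DESeq2 called 83 and 14. Of the 31, 2 bear a symbol.

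LINC-GLUL-1 had the larger of these changes. GLUL encodes glutamine synthetase, the enzyme of astrocytes and radial glia that converts glutamate to glutamine. At E42 the feature was at 153 and 154 CPM in the MZ and 37.2 and 32.5 CPM in CPo (4.41-fold, log2 fold change 2.14, SE 0.20, adjusted p = 2.8e-08). At E37 the levels overlapped, 47.5 and 34.7 CPM in the MZ and 39.8 and 48.8 CPM in CPo (-0.11, SE 0.19, adjusted p = 0.79), and at E28 the MZ was the lower layer, with 22.4 and 19.1 CPM against 41 and 41.6 CPM in CP (-0.99, SE 0.19, adjusted p = 0.0012). The layer difference therefore grew by 2.25 on the log2 scale from E37 to E42 (SE 0.27, adjusted p = 4.9e-05). Leaving out any 1 of the 8 libraries of the 2 stages gave 1.93 to 2.46, and every such fit called it. With those 8 libraries alone the adjusted p was 0.058. At E42 the MZ mean of 154 CPM was near that of the VZ library (158 CPM) and of ISVZ (154 CPM), below OSVZ (215 CPM), and above the IZ (78 CPM).

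ADGRG1-AS-2 had the smaller change. ADGRG1 is an adhesion G protein-coupled receptor of neural progenitors whose loss disturbs the cortical surface. Its antisense feature was at 55 and 85.2 CPM in the MZ and 18.4 and 21.2 CPM in CPo at E42 (3.54-fold, log2 fold change 1.82, SE 0.20, adjusted p = 2.1e-07), at 24.5 and 30.4 CPM against 20.7 and 17.8 CPM at E37 (0.52, SE 0.19, adjusted p = 0.083), and at 32.1 and 32.3 CPM against 34.1 and 32.3 CPM at E28 (-0.04, SE 0.19, adjusted p = 0.98). The change from E37 to E42 was 1.30 (SE 0.27, adjusted p = 0.039). It stayed called without E42 MZ replicate 1 (adjusted p = 0.018) and was lost without each of the other 7 libraries of the 2 stages in turn (0.091 to 0.85), with all 36 libraries (0.52), with the 8 libraries alone (0.43), with DESeq2's size factors (0.085), without the filter on low counts (0.07) and with E42 MZ replicate 1 thinned (0.052). Its E42 layer difference by itself kept its call without any 1 of the 4 E42 libraries. Its level at E42 was highest in the VZ library, at 213 CPM.

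**Figure D5:**
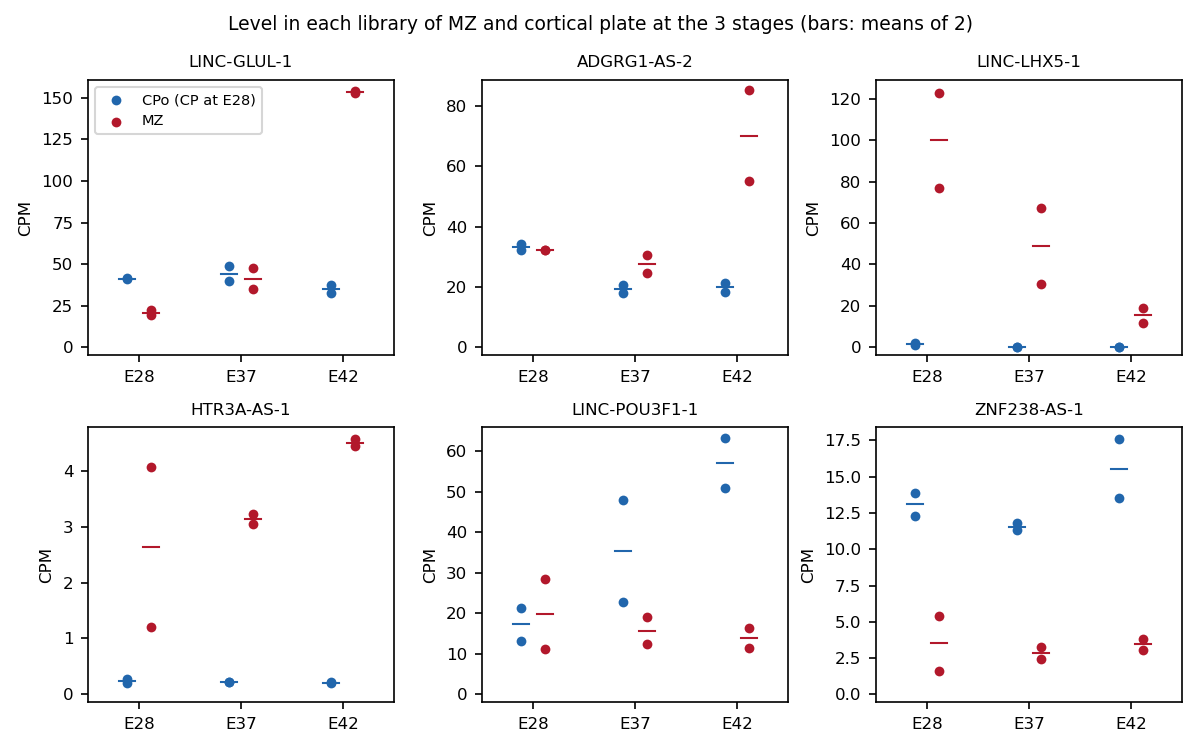
CPM in each library of the MZ (red) and of CPo, or CP at E28 (blue), at E28, E37 and E42 for 6 features, with short bars at the means of 2 libraries. For LINC-GLUL-1 the MZ is the lower layer at E28, overlaps CPo at E37 and is the higher at E42 (153 and 154 against 37.2 and 32.5 CPM), the gap of ADGRG1-AS-2 is widest at E42 (55 and 85.2 against 18.4 and 21.2 CPM), LINC-LHX5-1 and HTR3A-AS-1 are higher in the MZ at each stage, and ZNF238-AS-1 is lower.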

How the data were processed

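Per the labels and the methods of the study, the authors trimmed adapters, used HISAT (HISAT2 in the labels) for alignment to the genome of the species, and counted with HTSeq on the TS_3.0 annotation. The deposited values are raw counts per feature, in a file for each library, with 5 counter lines that were removed here (42.03% to 47.93% of all counts in the 4 libraries). edgeR 4.0.16 in R 4.3.3 was run on 35 libraries in 18 groups of layer and stage: features passing filterByExpr (minimum count 10), TMM normalization, a group-mean design, robust quasi-likelihood fits (17 residual degrees of freedom), contrasts between groups, and Benjamini-Hochberg adjustment over 26858 features with a threshold of 0.05. SE is the absolute log2 fold change divided by the root of the F statistic. Fitted folds use a prior count of 0.125. The script was tested on simulated data. At these depths 3 counts over a group, the floor for a feature at 0, equal 0.0315 CPM in CPo and 0.024 CPM in the MZ, and counting intervals are 95% exact binomial ones of the summed counts.

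Named features are the 12 largest called differences per direction among LINC and AS features of at least 0.5 CPM with no overlap, up to 3 per list and direction, the 6 symbols with most calls per direction, 2 TSDBGID features per direction of at least 5 CPM, and the symbol-named features whose difference changed from E37 to E42. Features chosen after their values were seen are said to be so. Members, gene lists and tests were chosen with earlier results of these data known. Lists were matched by the symbol in a feature's name, and described by counts and medians without a set test. Alternatives were all 36 libraries, only the libraries compared, no filter, DESeq2 1.42.0, DESeq2 size factors in edgeR, a replicate block, a fold threshold, each library left out, and, added after seeing the data, MZ replicate 1 thinned to the depth of MZ replicate 2. Some features that the rule names are not reported here.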

Additional observations from a re-analysis of the deposited data

Results flagged for a closer look

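The difference between the MZ and CPo changed from E37 to E42, by its own interaction test in edgeR, for 29 features toward the MZ and 2 toward CPo. Among them LINC-GLUL-1 moved by 2.25 on the log2 scale (adjusted p = 4.9e-05) and ADGRG1-AS-2 by 1.30 (adjusted p = 0.039). Each was higher in the MZ in 2 of 2 libraries at E42, which by itself does not show a change. As given above, ADGRG1-AS-2 lost the call of its change in most alternative fits, and LINC-GLUL-1 with the libraries of the contrast alone.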

How the results depend on the processing

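The 2077 features higher in the MZ and 1469 higher in CPo became 3470 and 2536 with only the 4 libraries compared, and 1469 became 523 above an absolute log2 fold change of 1, where 1772 remained on the MZ side (77.2% of calls against 58.6%). Leaving out 1 library gave 1132 to 1503 and 601 to 1139. With a replicate block, which is a hint only since the labels do not say what a number marks and the deviations of same-numbered MZ and CPo samples correlated at 0.107, the counts were 2837 and 2499. The 29 and 2 features whose difference changed from E37 to E42 were 98 and 19 without the filter, 3 and 0 with all 36 libraries, 0 and 0 with the 8 libraries alone, 83 and 14 with DESeq2, 87 and 9 with the replicate block, and 5 to 32 and 1 to 4 with 1 library left out. The cause was not tested, except that fits without a library have fewer samples. No named feature reversed under these alternatives. Of 66 named features, 16 stayed called without any 1 library. With all 36 libraries 14 lost their call, with no filter 10, with the thinned library 6, with the DESeq2 size factors or the block 1 each, and with DESeq2 1 of the 60 it gave an adjusted p.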
